A study of Mus musculus with 9 samples.

Results

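The microtranscriptome of quadriceps from mice without Mbnl2 (Mbnl2KO) was compared with that of wild-type mice (WT), using 6 of the 9 small RNA libraries of the series. The WT mice were labelled C57BL/6J with Mbnl1+/+ and Mbnl2+/+. The Mbnl2KO mice were labelled B6.C-Tg(CMV-cre)1Cgn/J and Mbnl1+/+, with Mbnl2 deltaE2/deltaE2 in replicate 1, deltaE2/deltaE3 in replicate 2 and deltaE2/deltaE4 in replicate 3. The paper describes a single deletion of exon 2 in both copies and calls the WT animals littermates, so the 3 mice were analysed as 1 group although their labels differ. The strain labels thus differ between the groups, and the parts of genotype and strain in any difference cannot be told apart. CMV-cre is a Cre transgene with a promoter active in most tissues, so a deletion made with it is not limited to muscle fibres. All mice were 90 days old by their labels, there were 3 libraries per group, and each library was taken as 1 mouse. The Mbnl2 mRNA is not seen by small RNA sequencing, and the genotypes were not checked here through the targeted gene. The 3 remaining libraries came from mice without Mbnl1 (Mbnl1KO, C57BL/6J, Mbnl1 deltaE3/deltaE3, Mbnl2+/+) and are used only to show where the knockouts differ. Of 1966 mature miRNAs listed, 293 averaged more than 10 normalized counts in these 6 libraries and were tested.

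MBNL2 belongs to the muscleblind-like family of RNA-binding proteins, which bind YGCY motifs (Y is C or U) and regulate alternative splicing, polyadenylation and RNA localization. In myotonic dystrophy these proteins are held by expanded CUG repeats in the nucleus. A miRNA is cut from the arms of a hairpin in its primary transcript by DROSHA and DICER, one arm usually prevails in the silencing complex, and the seed at its 5′ end (bases 2 to 8) pairs with target mRNAs. In skeletal muscle, miR-1 and miR-133 are the abundant miRNAs of fibres, and miR-206 is their relative known for regenerating muscle and slow fibres.

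The sequences of the miRNAs that rose in Mbnl2KO are shown first, because arms of 1 hairpin and members of 1 cluster appear among them with unlike seeds. They were copied from RefSeq for GRCm38.p6 and are written 5′ to 3′ with the seed in capitals.
miR-206-3p: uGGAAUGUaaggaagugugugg
miR-148a-3p: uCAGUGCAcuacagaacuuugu
miR-708-5p: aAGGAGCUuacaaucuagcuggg
miR-708-3p: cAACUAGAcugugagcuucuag
miR-182-5p: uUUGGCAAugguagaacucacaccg
miR-183-5p: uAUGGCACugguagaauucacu
miR-10b-5p: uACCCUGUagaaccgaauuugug
miR-335-5p: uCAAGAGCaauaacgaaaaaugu
miR-335-3p: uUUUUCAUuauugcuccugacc
miR-143-3p, which also rose, is named only. No seed is repeated in these 9 sequences. With positions counted from 1 at the 5′ end, miR-182-5p and miR-183-5p differ within the seed by U2A and A8C.

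The sequences of the 7 miRNAs that fell are given in the same way.
miR-615-3p: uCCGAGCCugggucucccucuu
miR-101b-3p: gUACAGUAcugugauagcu
miR-149-5p: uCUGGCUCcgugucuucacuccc
miR-100-5p: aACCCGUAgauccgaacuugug
miR-7a-5p: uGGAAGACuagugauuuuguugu
miR-365-2-5p: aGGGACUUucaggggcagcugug
miR-5113: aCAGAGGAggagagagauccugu
The sequences of 4 close relatives that did not pass the test are shown for comparison, because each miRNA is a near copy of a miRNA that did.
miR-10a-5p: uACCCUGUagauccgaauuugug
miR-99a-5p: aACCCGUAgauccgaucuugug
miR-101a-3p: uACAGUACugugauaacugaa
miR-148b-3p: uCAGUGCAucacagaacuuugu
Relative to miR-10b-5p, miR-10a-5p has the single substitution A12U. Relative to miR-100-5p, miR-99a-5p has A16U. Relative to miR-148a-3p, miR-148b-3p has C9U and U10C, so these 3 pairs keep their seeds. The listed miR-101b-3p starts 1 base earlier than miR-101a-3p, which moves its seed by 1 base. Of the 293 tested miRNAs, 261 had a mature sequence in RefSeq, among them 16 of the 17 that changed.

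In Mbnl2KO muscle, 17 of 293 miRNAs were differentially expressed (5.80%), of which 10 rose (3.41%) and 7 fell (2.39%). The rises were led by miR-708-5p, miR-708-3p and miR-182-5p among scarce miRNAs and by miR-206-3p and miR-148a-3p among abundant ones. The falls were led by miR-365-2-5p, miR-5113 and miR-615-3p. The 3 Mbnl2KO values lay outside the range of the 3 WT values for all 17, against 23.2% of all tested miRNAs (68 of 293). The same libraries chose the 17, so their count is a description and no further support. Changes of the 17 ran from 0.48 to 1.58 on the log2 scale without regard to sign, where the median over all tested miRNAs was 0.22. The median of the signed changes over all tested miRNAs was 0.02. All adjusted p-values below come from the quasi-likelihood test of edgeR, corrected over the tested miRNAs after Benjamini and Hochberg, and miRNAs with a value under 0.05 are said to be called or changed. Without normalization beyond library totals, 7 miRNAs were called and 71.4% of them rose, against 58.8% here. The labels number the replicates without naming animals, so these p-values measure the spread between libraries, part of which may be technical.

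**Figure D1:**
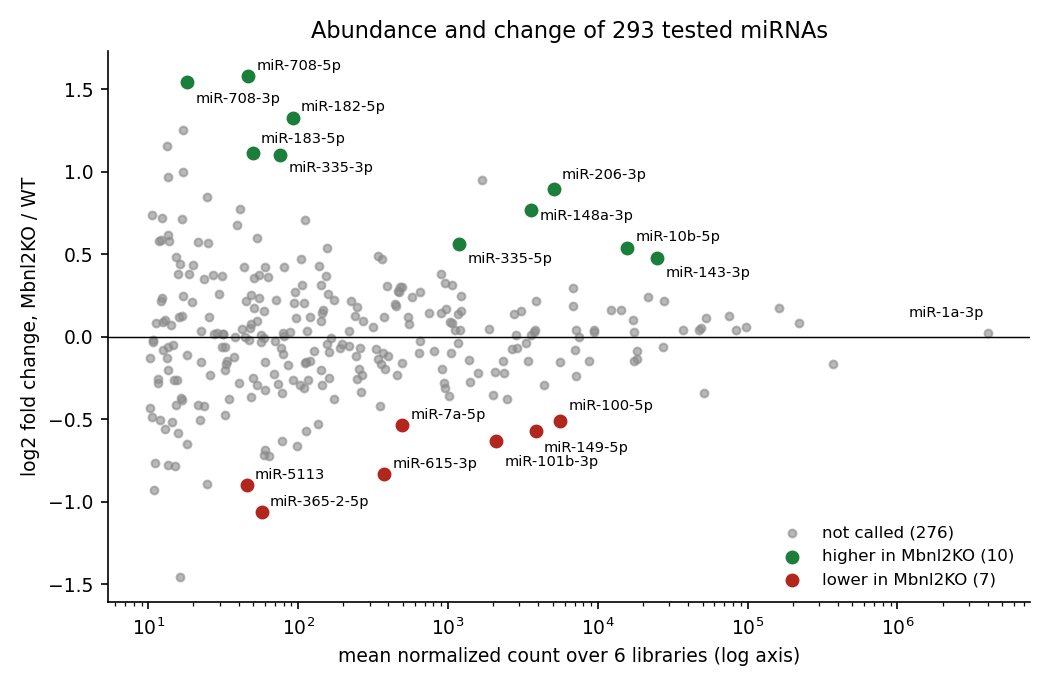
Mean normalized count over the 6 libraries (x, log axis) and log2 fold change of Mbnl2KO over WT (y) for the 293 tested miRNAs. The 10 green points rose and the 7 red points fell, and miR-1a-3p, far to the right, lies at 0.02.

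Total counts per library were 4761271 to 6147836 in WT and 5479314 to 5954905 in Mbnl2KO. Of these counts, 69.7% to 71.3% in WT belonged to miR-1a-3p alone, and 67.2% to 73.7% in Mbnl2KO, with the lowest share in replicate 2 and the highest in replicate 3 of the knockout. The median standard error of a log2 fold change was 0.33 for 138 miRNAs with a mean of 10 to 100 normalized counts, 0.16 for 82 with 100 to 1000 and 0.13 for 73 above 1000. The smallest change called was 0.90 in the first of these classes, 0.53 in the second and 0.48 in the third. For 216 of 293 miRNAs (73.7%) the 95% interval of the change lay within 1 log2 unit of no change on both sides, and for 85 (29.0%) within 0.5. At the filter, miR-211-5p (mean 10.3) was just inside and miR-877-5p (9.95) and miR-100-3p (9.88) were just outside.

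miR-206-3p, a muscle-specific miRNA that promotes differentiation and reinnervation, rose with the smallest p of all. It had 3940, 3364 and 3353 normalized counts in the WT mice and 8082, 5286 and 6441 in the Mbnl2KO mice (3552 ± 336 and 6603 ± 1405, SD, n = 3). Every knockout value was above every WT value. The log2 fold change was 0.89 ± 0.14 (SE), or 1.86-fold, with an adjusted p of 0.000757, and it was called with any 1 library left out. The mature miRNA lies at chr1:20679055-20679076 on the plus strand, where its precursor overlaps an exon of the long noncoding RNA Lincmd1. Its neighbour in the same transcript, miR-133b-3p, had 49.9, 62.5 and 78.2 in WT and 59.7, 59.2 and 51.2 in Mbnl2KO, a log2 fold change of -0.15 (95% interval -0.66 to 0.35, adjusted p = 0.787). The groups overlapped for this neighbour, whose sequence is nearly that of miR-133a-3p, so reads could be shared between them. The other arm, miR-206-5p, had at most 1 read in a library.

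The remaining miRNAs of muscle fibres did not pass the test. miR-1a-3p, the most abundant miRNA, differed by 0.02 (95% interval -0.27 to 0.31, adjusted p = 0.958), and the sign of this value depends on the scaling. miR-133a-3p had 387786, 378179 and 412284 in WT and 351872, 349039 and 351527 in Mbnl2KO, a log2 fold change of -0.16 with an adjusted p of 0.498. The groups did not overlap for miR-133a-3p, and the standard error of this change was 0.11. The passenger strand of the first miR-1 precursor, miR-1a-1-5p, had 123, 137 and 101 in WT and 80.9, 80.05 and 67.9 in Mbnl2KO, a log2 fold change of -0.66 that missed the threshold (adjusted p = 0.0636). It passed without WT replicate 3 (0.0485) and by DESeq2's Wald test (0.0495), and its adjusted p reached 0.253 without WT replicate 2. Of 18 muscle-enriched entries, 7 were tested, 1 rose and none fell, with a median log2 fold change of -0.15, where 3.41% rose and 2.39% fell among all tested miRNAs. The 4 entries of miR-486 and those of miR-208 were listed at 0 in all 6 libraries, although miR-486 is regarded as a muscle miRNA.

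Of the miR-708 hairpin both arms were called. miR-708 is made from an intron of Tenm4 and shares its 5p seed with miR-28. miR-708-5p had 19.6, 31.2 and 18.4 normalized counts in WT and 82.8, 69.6 and 57.1 in Mbnl2KO. Its log2 fold change was 1.58 ± 0.28 (SE), or 2.99-fold, with an adjusted p of 0.00122, and it was the largest change of any called miRNA. miR-708-3p had 3.91, 12.5 and 11.5 in WT and 32.7, 30.5 and 17.9 in Mbnl2KO, from 4, 14 and 10 reads against 34, 35 and 15. Its log2 fold change was 1.55 ± 0.42 (adjusted p = 0.0262), which rests on few reads. With a WT mean of 9.30, under the minimum of 10, it passed the filter on low counts only through the knockout, and its call is no separate support for a rise of the hairpin. This call held only without Mbnl2KO replicate 3 among the 6 fits with 1 library left out, and the adjusted p of the others reached 0.161. The arms lie at chr7:96249450-96249472 and chr7:96249496-96249517 on the plus strand. miR-28a-5p, with the same seed, had a log2 fold change of 0.28 (adjusted p = 0.342) and miR-151-5p, another relative, of -0.03 (adjusted p = 0.916).

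The cluster of miR-183, miR-96 and miR-182, best known from sensory cells, also rose where it could be tested. miR-182-5p had 50.8, 52.6 and 54.0 in WT and 107, 193 and 92.8 in Mbnl2KO, a log2 fold change of 1.33 ± 0.26 (adjusted p = 0.00234). miR-183-5p had 32.3, 28.6 and 34.5 in WT and 54.9, 102 and 46.4 in Mbnl2KO, a log2 fold change of 1.11 ± 0.30 (adjusted p = 0.0243). For both, the WT mice were close together and replicate 2 of the knockout stood far above replicates 1 and 3, which were still above all WT mice. Without that library miR-182-5p kept its call at 0.95 (adjusted p = 0.0112), whereas miR-183-5p lost it (0.70, adjusted p = 0.241). miR-183-5p was called only when Mbnl2KO replicate 3 was the library left out (adjusted p = 0.00305). The third member, miR-96-5p, had 1 to 3 reads per library and was not tested. The mature sequences lie at chr6:30165962-30165986 and chr6:30169711-30169732 on the minus strand, in the noncoding gene Mirc35hg.

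miR-335, made from an intron of the imprinted gene Mest, rose in both arms. miR-335-5p, the more abundant arm, had 1032, 966 and 875 in WT and 1523, 1575 and 1150 in Mbnl2KO, a log2 fold change of 0.56 ± 0.15 (adjusted p = 0.0208). miR-335-3p had 53.8, 48.2 and 43.7 in WT and 118, 128 and 64.3 in Mbnl2KO, a log2 fold change of 1.101 ± 0.26 (adjusted p = 0.0106). In both arms replicate 3 of the knockout was nearest to WT and the groups stayed apart. The 5p arm passed the threshold only without Mbnl2KO replicate 3 (adjusted p = 0.00301) when 1 library was left out, and reached an adjusted p of 0.144 without replicate 1. The 3p arm lost its call without WT replicate 2 (0.0534), WT replicate 3 (0.0560) or Mbnl2KO replicate 1 (0.0932). The arms lie at chr6:30741314-30741336 and chr6:30741354-30741375 on the plus strand.

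miR-148a-3p, a regulator of the DNA methyltransferase Dnmt1 and of muscle differentiation, had 2928, 2641 and 2370 in WT and 4479, 5270 and 3795 in Mbnl2KO. Every knockout mouse was above every WT mouse, and the log2 fold change was 0.77 ± 0.14 (1.71-fold, adjusted p = 0.00122). Its other arm, miR-148a-5p, was scarce, with 9.78, 9.82 and 8.05 in WT and 24.1, 20.0 and 9.52 in Mbnl2KO. Its log2 fold change of 0.97 did not pass the test (adjusted p = 0.242), and replicate 3 lay within the WT range. The relatives with the seed of miR-148a-3p did not pass either, with 0.24 for miR-148b-3p (95% interval -0.04 to 0.53, adjusted p = 0.385) and 0.02 for miR-152-3p (adjusted p = 0.983). miR-148a-3p lies at chr6:51269829-51269850 on the minus strand, in an intron of the noncoding gene Gm38821.

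miR-10b-5p, encoded among the HoxD genes in introns of Hoxd3 and Hoxd4, had 11645, 12089 and 14445 in WT and 20215, 18262 and 17084 in Mbnl2KO. The log2 fold change was 0.54 ± 0.12 (adjusted p = 0.0103). Without WT replicate 1, WT replicate 2 or Mbnl2KO replicate 1 the call was lost (adjusted p = 0.0794, 0.0572 and 0.117). Its near copy from the HoxB genes, miR-10a-5p, had 6006, 6297 and 6085 in WT and 8126, 7115 and 7309 in Mbnl2KO, groups that do not overlap, but 0.29 was not a differential expression (adjusted p = 0.156). The mature miR-10b-5p lies at chr2:74726074-74726096 on the plus strand.

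miR-143-3p, a miRNA of smooth muscle and other mesenchymal cells, had 22790, 19327 and 20220 in WT and 27474, 27643 and 31623 in Mbnl2KO, a log2 fold change of 0.48 ± 0.12 (adjusted p = 0.0169). It lost its call without WT replicate 2, Mbnl2KO replicate 1 or Mbnl2KO replicate 3 (adjusted p = 0.0857, 0.0723 and 0.0945), and also with library totals alone (0.0601) and with all 9 libraries in 1 fit (0.145). The members of the same cluster, miR-145a-5p (0.04) and miR-145a-3p (0.32), and the other arm, miR-143-5p (-0.00), did not pass the test, with adjusted p of 0.905, 0.242 and 0.996. Among 12 entries known from vessel wall and connective tissue, 10 were tested, 1 rose and none fell, with a median of 0.06 (3.41% rose and 2.39% fell among all tested miRNAs). Their summed normalized counts were 36081 to 39609 in WT and 44807 to 50516 in Mbnl2KO, and miR-143-3p alone makes up more than any other member. The endothelial miR-126a was listed at 0 in both arms. The part of a changed share of such cells in these values was not tested, and in bulk muscle more cells of a type and more RNA per cell cannot be told apart.

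**Figure D2:**
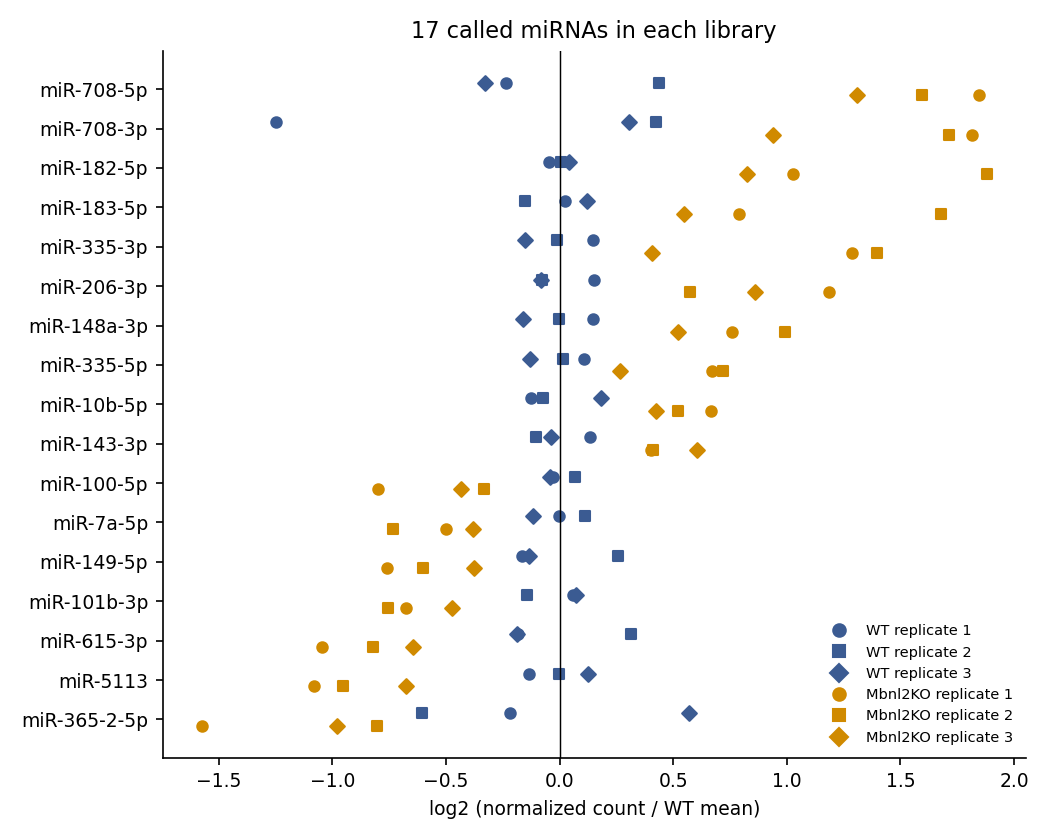
Normalized count of each of the 17 differentially expressed miRNAs in each library, as log2 of its ratio to the WT mean (x), with WT in blue, Mbnl2KO in orange and marker shapes for replicates. In no row do the groups overlap, and replicate 3 of Mbnl2KO (diamonds) is the one nearest to WT for 13 of 17.

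Among the miRNAs that fell, miR-615-3p, from an intron of Hoxc5, had 423, 598 and 422 in WT and 233, 272 and 307 in Mbnl2KO. The log2 fold change was -0.83 ± 0.17, or 0.562 of the WT level (adjusted p = 0.00278), and the call was lost only without WT replicate 2, the highest mouse (adjusted p = 0.0534). It lies at chr15:103014969-103014990 on the plus strand. The Hox miRNAs miR-196a-5p and miR-196b-5p had lower means without passing the test, the first with -0.29 (adjusted p = 0.321) and the second with -0.31 (adjusted p = 0.242). With each library left out, the first lay between -0.41 and -0.14 and the second between -0.39 and -0.21. Of 6 tested miRNAs of the Hox clusters, 1 rose (miR-10b-5p) and 1 fell (miR-615-3p), with a median of 0.00, against 5.80% called among all tested miRNAs.

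miR-101b-3p, a miRNA known to target the methyltransferase Ezh2, had 2657, 2305 and 2680 in WT and 1594, 1510 and 1832 in Mbnl2KO. It fell by 0.63 on the log2 scale (SE 0.13, adjusted p = 0.00453) and was called with any 1 library left out. It lies at chr19:29135338-29135356 on the plus strand in an intron of Rcl1. miR-101a-3p, from another locus, had 2828, 2603 and 3412 in WT and 2698, 2769 and 2964 in Mbnl2KO, and its log2 fold change of -0.07 (95% interval -0.34 to 0.20) did not pass the test (adjusted p = 0.826). The ranges of this relative overlapped, while those of miR-101b-3p were far apart.

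miR-100-5p, which targets mTOR and is processed from the noncoding gene Mir100hg, had 6415, 6864 and 6367 in WT and 3767, 5193 and 4847 in Mbnl2KO. The log2 fold change was -0.51 ± 0.13 (adjusted p = 0.0202), and it was lost without WT replicate 2 (0.0826) or Mbnl2KO replicate 1 (0.120). The other arm, miR-100-3p, was just under the filter, with 20, 18 and 13 reads in WT and 3, 4 and 2 in Mbnl2KO. In a fit without the filter its log2 fold change was -2.47 ± 0.61 (adjusted p = 0.00395). Both strands of this hairpin were thus lower in every knockout mouse. The 3p arm rests on few reads and enters only without the filter, so it is no separate support for a fall of the hairpin. miR-99a-5p, which differs from miR-100-5p by the single base given above, had 6723, 7994 and 7058 in WT and 6954, 7139 and 6486 in Mbnl2KO (log2 fold change -0.08, adjusted p = 0.774). miR-100-5p lies at chr9:41531437-41531458 on the plus strand. Of 8 tested entries of the families of miR-99, miR-100 and miR-125, 1 fell and none rose, with a median of -0.14, while 2.39% fell among all tested miRNAs.

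miR-149-5p, from an intron of Gpc1, had 4095, 5486 and 4184 in WT and 2713, 3020 and 3533 in Mbnl2KO, a log2 fold change of -0.57 ± 0.14 (adjusted p = 0.0153). Without WT replicate 2, its highest mouse, or Mbnl2KO replicate 1 it was not called (0.118 and 0.0887). It lies at chr1:92850381-92850403 on the plus strand. miR-7a-5p, a regulator of growth factor signalling, had 584, 632 and 540 in WT and 413, 352 and 450 in Mbnl2KO, a log2 fold change of -0.53 ± 0.15 (adjusted p = 0.0262). Its call held only without WT replicate 3 (0.0444) or Mbnl2KO replicate 3 (0.0129), and the adjusted p of the other 4 fits reached 0.126. The mature sequence is encoded at chr13:58392841-58392863 on the minus strand, in an intron of Hnrnpk, and at chr7:78888295-78888317 on the plus strand, and its counts cannot be divided between these loci. The passenger strand of the first locus, miR-7a-1-3p, had a log2 fold change of 0.22 (adjusted p = 0.634), and between 0.042 and 0.31 with each library left out.

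The remaining falls were of scarce miRNAs. miR-365-2-5p had 66.5, 50.9 and 115 in WT and 26.0, 44.4 and 39.3 in Mbnl2KO, a log2 fold change of -1.06 ± 0.30 (adjusted p = 0.0342). WT replicate 3 stood far above the other WT mice, and without it the log2 fold change was -0.68 with an adjusted p of 0.311. It was also lost without WT replicate 1 (0.0569) or Mbnl2KO replicate 1 (0.169). The guide strand of this family, miR-365-3p, which can come from either of its loci, had a log2 fold change of -0.27 (adjusted p = 0.409). With each library left out its change lay between -0.44 and -0.022. miR-365-2-5p lies at chr11:79726428-79726450 on the plus strand, in introns of the noncoding genes Gm10387 and Gm74356. miR-5113 had 53.8, 58.9 and 64.4 in WT and 27.9, 30.5 and 36.9 in Mbnl2KO, a log2 fold change of -0.90 ± 0.26 (adjusted p = 0.0370). Its groups were tight and well apart, yet it was called only without Mbnl2KO replicate 3 (0.0355) among the fits with a library left out, and reached 0.153 without Mbnl2KO replicate 1. It lies at chr15:80940049-80940071 on the plus strand and its precursor overlaps an exon of Tnrc6b, a gene of the silencing complex, so its counts may be shared with that mRNA.

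**Figure D3:**
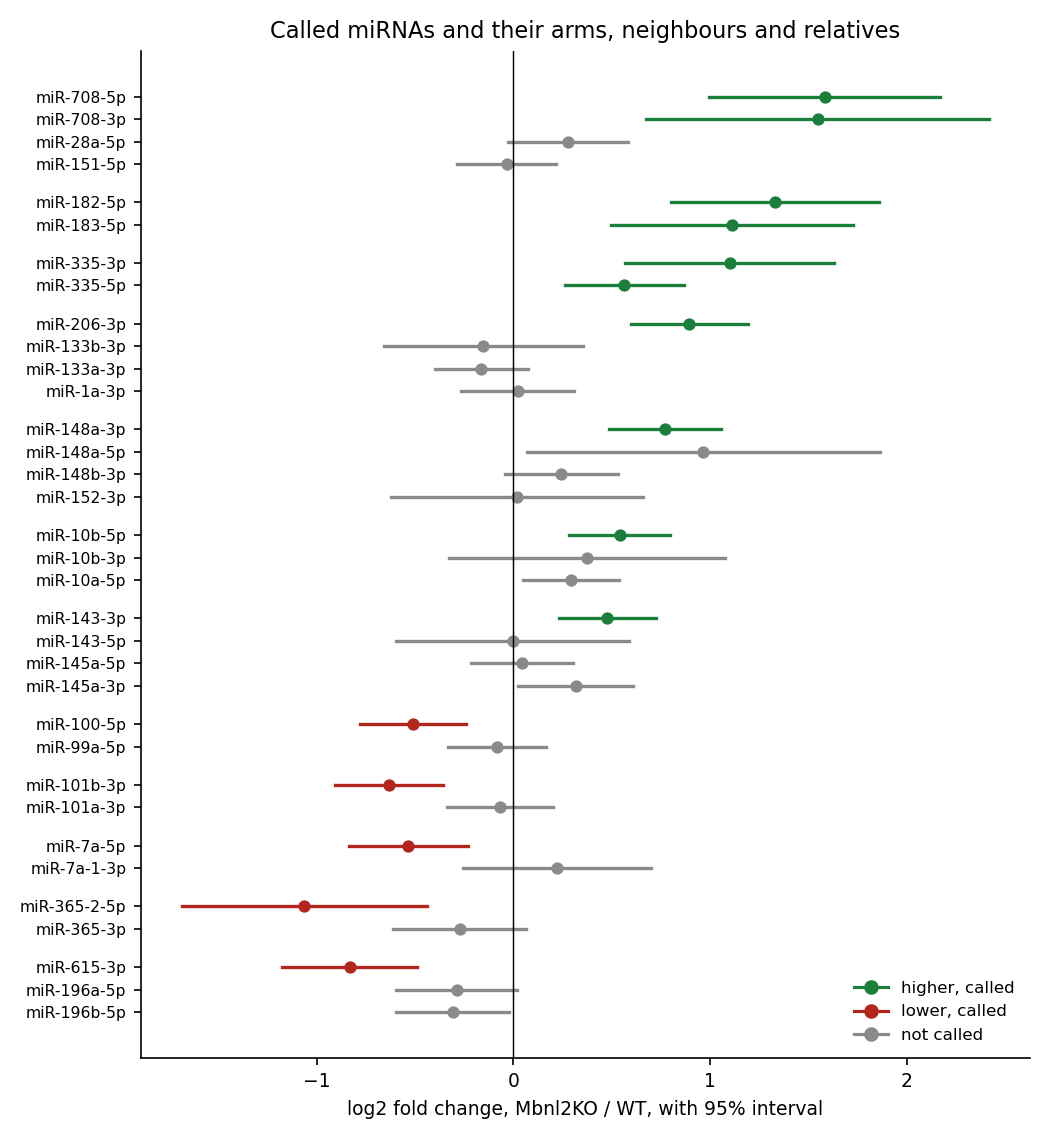
Log2 fold change of Mbnl2KO over WT with its 95% interval (x) for called miRNAs, each followed by its other arm, neighbours and relatives. Green and red stand for calls and grey for miRNAs that did not pass, such as miR-99a-5p (-0.08) beside miR-100-5p (-0.51).

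Among miRNAs whose groups did not overlap, the 10 nearest to the threshold had adjusted p from 0.0567 to 0.122, 4 of them higher and 6 lower in Mbnl2KO. The nearest was miR-503-3p, with 11.7, 7.14 and 11.5 in WT and 26.97, 23.5 and 21.4 in Mbnl2KO (log2 fold change 1.25 ± 0.38, adjusted p = 0.0567). It belongs to the cluster of miR-322, miR-503 and miR-351 on chromosome X, known from differentiating myoblasts. miR-351-5p had 272, 344 and 290 in WT and 460, 426 and 369 in Mbnl2KO (0.47, adjusted p = 0.0742), whereas miR-503-5p (0.11, adjusted p = 0.824) and miR-322-5p (0.19, adjusted p = 0.527) overlapped between the groups. Of 6 fits with a library left out, each passed in 1, that without Mbnl2KO replicate 3 (0.0370 and 0.0415), and their adjusted p reached 0.224 for miR-503-3p and 0.275 for miR-351-5p in the others. miR-21a-5p, a miRNA of damage and fibrosis, had 48931, 60750 and 60595 in WT and 45912, 39734 and 48801 in Mbnl2KO, a log2 fold change of -0.34 with an adjusted p of 0.122. The largest log2 fold change without a call was that of miR-135a-5p (-1.46, adjusted p = 0.0922), for which the groups overlapped. It was -2.39 without Mbnl2KO replicate 1 (adjusted p = 0.0150) and -1.04 without WT replicate 3 (0.404), and it also passed without the filter (0.0479).

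The 10 miRNAs with the highest mean had log2 fold changes between -0.34 and 0.17 and none was called. Among all 73 with a mean above 1000, 5 rose and 3 fell. miR-26a-5p, for example, did not overlap between the groups, but its log2 fold change of 0.17 did not pass the test (adjusted p = 0.473). Of 15 tested miRNAs linked to muscle damage and fibrosis, 2 rose (both arms of miR-335) and none fell, with a median of -0.01, beside 3.41% that rose and 2.39% that fell among all tested miRNAs. miR-31-5p had 15.6, 13.4 and 24.1 in WT and 29.9, 31.3 and 33.3 in Mbnl2KO (0.85, adjusted p = 0.154), and miR-29a-3p differed by -0.15 (adjusted p = 0.541). None of 9 tested immune and blood miRNAs was called, with a median of 0.04 and summed counts of 3568 to 4670 in WT and 3785 to 3969 in Mbnl2KO. Among them were miR-150-5p (0.38, adjusted p = 0.142), miR-155-5p (-0.42, adjusted p = 0.274) and miR-451a of red cells (-0.23, adjusted p = 0.498), and miR-142a-3p was listed at 0. The change of miR-155-5p was -0.12 without Mbnl2KO replicate 2, its lowest mouse, and -0.65 without Mbnl2KO replicate 1. That of miR-451a lay between -0.42 and -0.099 with each library left out. None of 3 tested neuronal miRNAs was called either (median -0.07, sums of 2565 to 3079 and 2220 to 3014), and both arms of miR-9 were listed at 0. No epithelial miRNA passed the filter, their sums being 13.4 to 31.0 in WT and 11.9 to 15.7 in Mbnl2KO, but miR-141-3p, miR-203-3p and miR-200b-5p were listed at 0 in all 6 libraries. An entry listed at 0 cannot be read as a miRNA that is not expressed. By its methods the study counted reads over the annotated mature regions of precursors, and it treats miR-24-3p and miR-203-3p as expressed in these mice, whereas their entries in the table used here hold no reads.

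Families that serve most cells had median log2 fold changes between -0.17 and 0.12, beside 0.02 for all tested miRNAs, a difference that was not tested. No call was made among 9 let-7 guides (median 0.04), 9 miR-30 entries (0.04), 6 miR-181 entries (0.05), 6 entries of miR-23 and miR-27 (0.10), 11 of miR-17-92 and its relatives (0.12) or 5 of the miR-532 cluster (-0.17). Among all tested miRNAs 5.80% were called, so the lack of a call in lists this small says little. For miR-181b-5p the groups did not overlap (log2 fold change -0.22, adjusted p = 0.391). The study lists it as deregulated in both knockouts by its own test. The 3 entries of miR-24, encoded beside miR-23 and miR-27, were listed at 0 in the 6 libraries and could not be tested. For miR-23b-3p the log2 fold change was 0.16 (95% interval -0.08 to 0.40, adjusted p = 0.498).

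**Figure D4:**
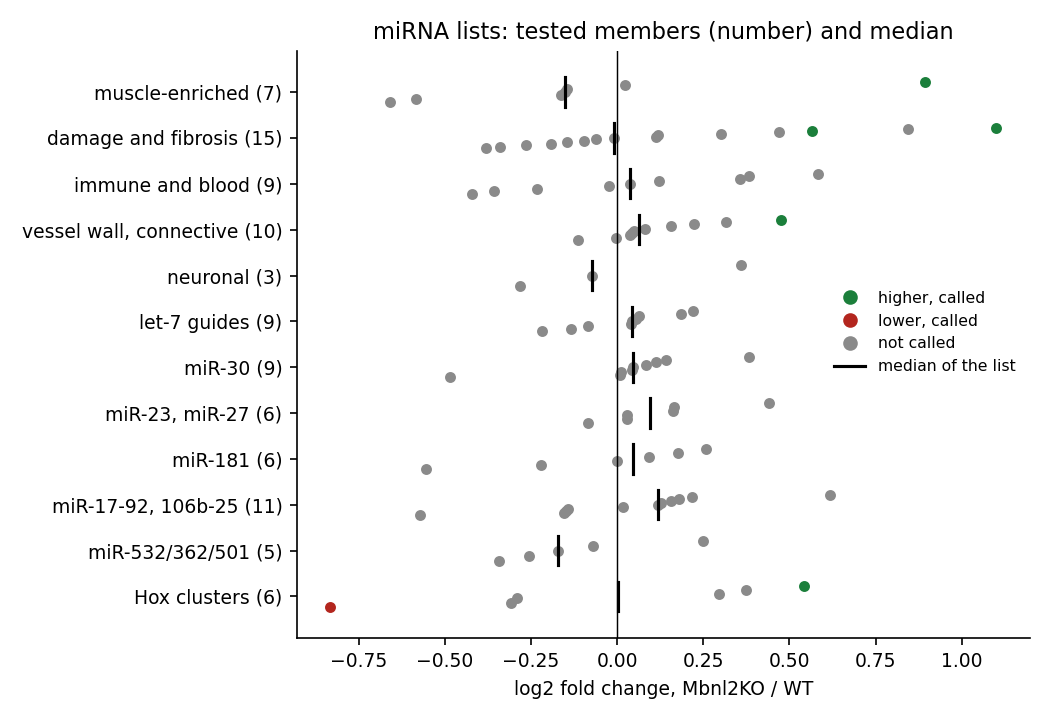
Log2 fold change of Mbnl2KO over WT (x) for the tested members of 12 miRNA lists (rows, with the number tested), with the median as a black bar. Medians lie between -0.17 and 0.12, and the green and red points are the calls.

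By position, 5 of the 17 called miRNAs lay on chromosome 6 and all 5 rose, out of 13 tested there, beside 3.41% that rose among all tested miRNAs. They are not 5 separate loci, since 2 are arms of the miR-335 hairpin and 2 are of the cluster of miR-182 and miR-183. miR-182 and miR-183 are 3.7 kb apart and miR-335 follows 571.6 kb away on the other strand. miR-148a lies far from them on the same chromosome. Between them, miR-29a-3p (-0.15), 321.3 kb beyond miR-335, did not pass the test. In the imprinted region between Dlk1 and Dio3 on chromosome 12, 37 miRNAs were tested and none was called, with 26 above 0, a median of 0.24 and 5 at an unadjusted p under 0.05. Over all 293 tested miRNAs, 154 were above 0 and 53 had an unadjusted p under 0.05. Of that region, miR-381-3p (0.71, adjusted p = 0.133) and miR-370-3p (1.16, adjusted p = 0.203) each passed in 1 of 6 fits with a library left out, that without Mbnl2KO replicate 3 (0.00381 and 0.0468). The change of miR-381-3p dropped to 0.24 (adjusted p = 0.667) without Mbnl2KO replicate 2. That of miR-370-3p dropped to 0.75 without Mbnl2KO replicate 2 (adjusted p = 0.490) and 0.77 without WT replicate 3 (0.502), and was 1.71 without WT replicate 2 (0.144).

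The precursors were searched for the 4 forms of the YGCY motif on the RNA strand, with overlaps allowed. The forms that end in U are UGCU as well as CGCU. Those that end in C are UGCC as well as CGCC. Of 202 RefSeq hairpins of tested miRNAs, 146 held at least 1 (72.3%). Such a motif was found in 3 of 6 hairpins of miRNAs that rose and in 7 of 7 hairpins of miRNAs that fell. The latter include both precursors of miR-7a-5p, and the hairpins of miR-615, miR-708 and miR-143 were not searched, so these counts do not cover all called miRNAs. In the loop between the arms, where 184 precursors could be read, 33 held a motif (17.9%), and none of the 12 loops of precursors with a called arm did. These matches describe letters in the hairpin, not binding.

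Set beside Mbnl1KO, fewer miRNAs changed in Mbnl2KO. In Mbnl1KO against the same WT mice, 105 of 317 tested miRNAs were called (33.1%). The knockouts were then compared directly, without the shared WT libraries, and 83 of 309 miRNAs differed (26.9%), 36 higher and 47 lower in Mbnl2KO. With library totals alone 77 differed, and only 5 of these were higher (6.49%, against 43.4%), while the median of all miRNAs moved from -0.07 to -0.36. Of the 17 miRNAs called in Mbnl2KO, 5 differed between the knockouts. These 17 were chosen by the same Mbnl2KO libraries that enter the direct comparison, which favours a difference in the direction of the call. Their direct results are thus not independent of that choice.

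Normalized counts of the direct comparison were scaled over the 6 knockout libraries, so they are not on the scale of the WT and Mbnl2KO counts above, and the Mbnl2KO counts are given again on this scale. miR-206-3p had 15764, 16821 and 13380 in Mbnl1KO and 8718, 6178 and 7116 in Mbnl2KO, without overlap. Its log2 fold change against WT was 1.93 there and 0.89 in Mbnl2KO, and the direct difference (Mbnl2KO minus Mbnl1KO) was -1.06 ± 0.14 (adjusted p = 2.87e-05). It held under all 14 alternatives. The other 4 were higher in Mbnl2KO. miR-335-5p had 712, 1190 and 988 in Mbnl1KO and 1642, 1841 and 1270.4 in Mbnl2KO. Its change in Mbnl1KO was a log2 fold change of -0.17 against WT, and differed directly by 0.72 ± 0.19 (adjusted p = 0.0143). miR-335-3p had 66.4, 68.7 and 50.4 in Mbnl1KO and 128, 149 and 71.0 in Mbnl2KO, and differed by 0.92 ± 0.27 (adjusted p = 0.0190). miR-183-5p had 37.8, 44.0 and 28.7 in Mbnl1KO and 59.2, 119 and 51.3 in Mbnl2KO, and differed by 1.07 ± 0.32 (adjusted p = 0.0260). Its cluster partner miR-182-5p had 97.3, 168 and 102 in Mbnl1KO and 115, 226 and 103 in Mbnl2KO, which overlapped. It had a log2 fold change of 1.03 against WT in Mbnl1KO, and the knockouts differed by 0.29 (95% interval -0.39 to 0.97, adjusted p = 0.486). For miR-10b-5p the direct difference was 0.33 ± 0.11 (adjusted p = 0.0361), and it held in 6 of 14 alternatives only.

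The other 12 did not pass the direct test, which does not show that they act alike. Of these, miR-148a-3p (0.35, adjusted p = 0.0743), miR-615-3p (-0.48, adjusted p = 0.0589) and miR-708-3p (1.23, adjusted p = 0.0818) passed it in some alternatives. For miR-148a-3p these were DESeq2's size factors, DESeq2's Wald test and the fits without Mbnl1KO replicate 2 or Mbnl2KO replicate 3. For miR-615-3p they were library totals with or without miR-1a-3p, the filter at 100 and the fit without Mbnl1KO replicate 2. For miR-708-3p they were the fit without a filter, the replicate block and the fits without Mbnl1KO replicate 1 or Mbnl2KO replicate 3. miR-708-5p, for instance, had log2 fold changes of 1.58 in Mbnl2KO and 1.23 in Mbnl1KO (95% interval of the direct difference -0.23 to 0.89). miR-100-5p had -0.51 and -0.71 (interval -0.16 to 0.54), and miR-101b-3p had -0.63 and -0.48 (interval -0.45 to 0.12). Values against WT share the WT mice, so a like sign in both knockouts is not independent evidence.

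**Figure D5:**
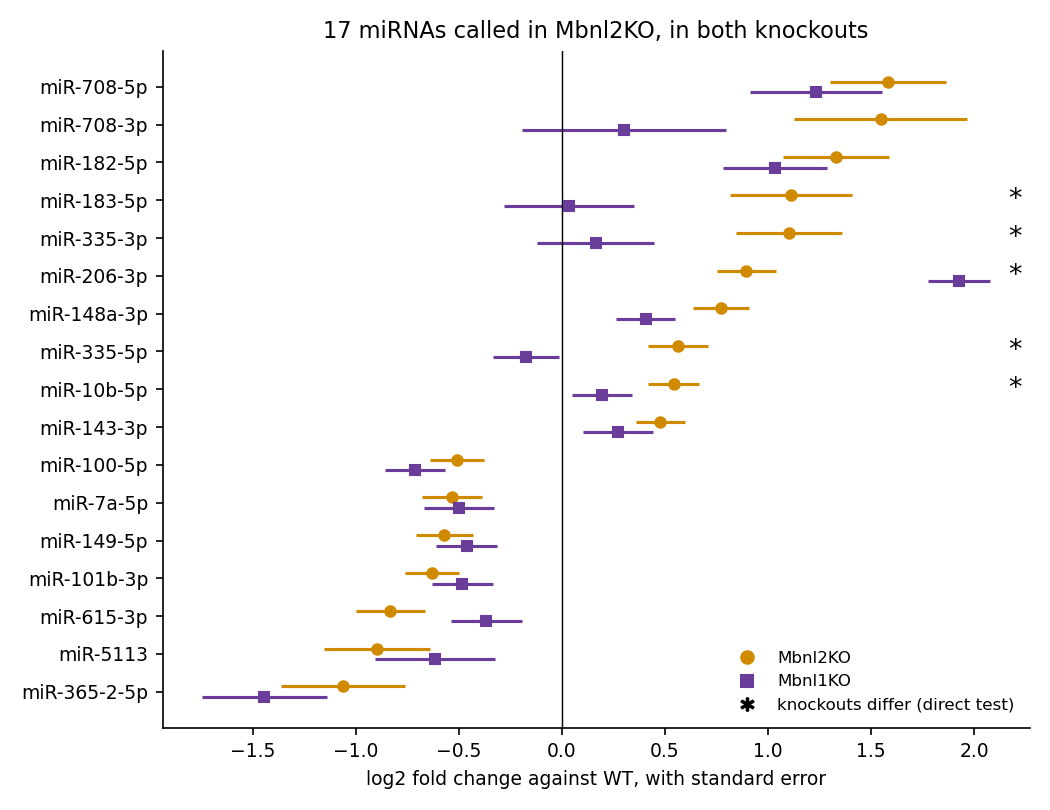
Log2 fold change against WT with its standard error (x) for the 17 miRNAs called in Mbnl2KO, in Mbnl2KO (orange circles) and Mbnl1KO (purple squares), which share the WT libraries. Asterisks mark the 5 that differ in the direct comparison, with miR-206-3p the only one of them higher in Mbnl1KO.

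The Mbnl2KO mice did not contribute equally. Replicate 3, labelled deltaE2/deltaE4, was the least changed of the 3 for 13 of 17 called miRNAs (76.5%), against 118 of 293 tested miRNAs (40.3%). The count for called miRNAs is a description, since the same libraries chose them. Without replicate 3, 25 miRNAs were called, 16 of them among the 17. This mouse also had the highest share of miR-1a-3p, and the part of genotype label, scaling and single animals in this was not tested.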

How the data were processed

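The authors deposited 1 table of raw, unnormalized read counts with a row per mature miRNA and a column per library (9). The paper describes libraries from total RNA (NEXTflex), adapter clipping, collapsing of identical reads and mapping to mouse precursors, but whether exactly this made the deposited table is not stated in it. Collapsing and multi-locus assignment decide how near copies share counts, and 1 entry per mature miRNA does not divide loci.

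Libraries were grouped by their labels. The 6 libraries of a comparison were fitted together by edgeR (robust quasi-likelihood test after TMM scaling), keeping miRNAs that averaged more than 10 normalized counts, and p-values were adjusted after Benjamini and Hochberg (threshold 0.05). Normalized counts are counts scaled by the TMM-corrected library size. Software was edgeR 4.0.16 with limma 3.58.1 in R 4.3.3, DESeq2 1.42.0 for 1 alternative, and Python 3.11.15 with matplotlib 3.10.9, pandas 2.3.3 and NumPy 2.4.6 for annotation and plots. Sequences and coordinates are from RefSeq (GRCm38.p6), and host genes from GENCODE on GRCm39, by name only. Coordinates are 1-based.

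The named miRNAs were all called ones, their other arms, neighbours within 10 kb and seed relatives, the 10 nearest to the threshold without overlap, the 10 most abundant, and up to 4 members of each list. miR-135a-5p, miR-140-3p, miR-370-3p and miR-381-3p were picked after their values were seen. The comparison, its members and the lists were chosen with earlier results of these data known. Alternatives were other scalings, filters, DESeq2's Wald test, all 9 libraries in 1 fit, a replicate block, a threshold of 0.01 and each library left out.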

Additional observations from a re-analysis of the deposited data

Results flagged for a closer look

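Of the 17 miRNAs called in Mbnl2KO, 5 differed between Mbnl2KO and Mbnl1KO in the direct comparison of the knockouts by edgeR's quasi-likelihood test, which does not use the shared WT libraries. Over all 309 miRNAs tested there, 83 differed (26.9%), a share near that of the 17. The direct comparison still uses the Mbnl2KO libraries that chose the 17, so it is not independent of their call. The log2 difference (Mbnl2KO minus Mbnl1KO) was -1.06 for miR-206-3p, higher in 3 of 3 Mbnl1KO mice, and it was called under all 14 alternatives (-1.36 to -0.94). It was 0.72 for miR-335-5p, called under 12 of 14 alternatives and lost with library totals alone (adjusted p = 0.109) or without Mbnl1KO replicate 3 (0.0542). For miR-335-3p it was 0.92, called under 9 of 13. For miR-183-5p it was 1.07, called under 11 of 13 and lost without Mbnl1KO replicate 3 or Mbnl2KO replicate 2. Over these alternatives it lay between 0.61 and 1.31. For miR-10b-5p it was 0.33, called under 6 of 14, and between 0.05 and 0.44 over these alternatives.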

How the results depend on the processing

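No called miRNA changed direction in any of 230 results under the alternatives, and 170 of these results were still called by the test used. miR-206-3p, miR-148a-3p, miR-708-5p, miR-182-5p and miR-101b-3p were called in every alternative that tested them. The count of 17 became 7 with library totals alone, 9 with a mean normalized count above 100 (155 miRNAs tested), 6 at an adjusted p under 0.01, and 6 to 25 with each library left out. The lowest of these was without WT replicate 2 and the highest without Mbnl2KO replicate 3, while leaving out the first Mbnl2KO or the first WT library gave 8 and 10. It was 17 with DESeq2's size factors, 14 with totals without miR-1a-3p, 18 with DESeq2 (63 adjusted p not given), 20 without a filter and 15 with all 9 libraries. The replicate number as a block gave 21, the 17 and miR-21a-5p, miR-140-3p, miR-135a-5p and miR-503-3p. Same-numbered libraries did not deviate together (r of -0.08, 0.08 and 0.03), beside -0.13 to 0.09 for the other pairs. With 3 libraries per group, these values cannot show whether the numbers pair the mice. The direct count of 83 became 45 at an adjusted p under 0.01 and 56 to 93 with each library left out, and the block gave 80.

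Values near 0 changed sign without passing the test. miR-1a-3p was -0.0043 with library totals and -0.014 with all 9 libraries, and lay between -0.13 and 0.16 with each library left out. miR-152-3p was -0.0085 with all 9 libraries and between -0.074 and 0.18 with each library left out. The same ranges were -0.33 to 0.016 for miR-133b-3p, -0.15 to 0.050 for miR-101a-3p, -0.054 to 0.15 for miR-145a-5p, -0.15 to 0.18 for miR-143-5p and -0.11 to 0.019 for miR-151-5p. The causes were not tested. Depth limits miRNAs with few reads most, such as miR-708-3p and miR-100-3p.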

Other observations

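The arms of miR-140 were higher in Mbnl2KO without passing the test. miR-140-3p, a miRNA of cartilage and connective tissue, had 1033, 1263 and 1138 normalized counts in WT and 1657, 3633 and 1347 in Mbnl2KO, a log2 fold change of 0.95 ± 0.39 (SE, quasi-likelihood test of edgeR, adjusted p = 0.281). miR-140-5p had 281, 278 and 288 in WT and 308, 538 and 340 in Mbnl2KO (0.49, adjusted p = 0.122). In both arms replicate 2 of the knockout was far above the other knockout mice, and no knockout value fell within the WT range. Without Mbnl2KO replicate 3 both arms passed the test (adjusted p = 0.0104 and 0.0468), and over the fits with other libraries left out neither did. Without Mbnl2KO replicate 2 the log2 fold change was 0.41 for miR-140-3p (adjusted p = 0.128) and 0.21 for miR-140-5p (adjusted p = 0.503).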
